A study of Mus musculus with 18 samples.

Results

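The 200 most abundant processed pseudogenes of mouse embryonic stem (mES) cells were examined in newly made RNA. They were chosen by summing the reads of each gene over all 18 libraries and taking the 200 highest of the 8485 autosomal genes that GENCODE M21 calls processed pseudogenes, after Gm6594, Eif3s6-ps2, Gm8210, Gm13137, Gm49379 and Gm49381 had been set aside. The count tables held 54446 genes, of which 9507 were processed pseudogenes. Among the 8485 candidates, 4518 had at least 1 read. The threshold fell between Gm12966 with 462 reads and Gm10362 with 461. Just inside it were also Gm21939 with 465 and Rpsa-ps9 with 463, and just outside it Gm7446 with 458 and Gm9442 with 456.

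A processed pseudogene is a copy of an mRNA that was reverse transcribed and inserted elsewhere in the genome, usually by the machinery of LINE-1 retrotransposons. It lacks the introns and the promoter of the gene it was copied from, its parent, and is usually not known to make a protein. Whether such a copy is read into RNA depends on where it landed, and because copy and parent share most of their sequence, short reads from them are hard to tell apart. Genes with abundant mRNA in the germline, such as those of ribosomal proteins, have left many copies in mammalian genomes.

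The study compared wild-type (WT) with Tet2-/- mES cells, called Tet2-KO here. TET2 is a dioxygenase that oxidizes 5-methylcytosine, and the study asked how its loss alters the making of RNA. Cells of both genotypes were grown in serum with LIF and the inhibitors CHIR99021 and PD0325901, were passaged on gelatin to remove feeder cells, and were labelled with 1 mM 5-ethynyl uridine (EU), a uridine analogue that enters new RNA, for 10, 20 or 40 min, so that all libraries share the medium and the label and none is unlabelled. Labelled RNA was captured and synthetic ERCC RNAs were added in proportion to total RNA, with 3 libraries for each genotype and labelling time. The labels give mES cells of each genotype with a replicate number, and the study's methods describe replicate dishes. No further line of either genotype is named. The loss of Tet2 and any other difference between the lines thus cannot be told apart, and p-values measure only the spread between dishes.

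Each library held between 17931614 and 23069143 reads on genes and between 44162 and 512186 reads on ERCC RNAs. The reads on Tet2 itself ranged from 589.0 to 740.9 reads per 1000000 gene reads (RPM) in WT and from 529.7 to 643.4 in Tet2-KO; the whole-gene count can hold reads from outside a deleted part, so it does not check the genotype. Among the 8 stem cell markers, 7 were read in all libraries and Sox2 was listed at 0 in all of them. Why Sox2 was at 0 was not tested, so the 0 does not show that it is silent. The summed level of the 8 was 2872 to 3053 RPM in WT and 2093 to 2210 in Tet2-KO. Medians in WT and Tet2-KO were 534.3 and 115.6 for Zfp42, 1008 and 703.5 for Tfcp2l1, and 145.9 and 91.28 for Klf4. They were 819.8 and 782.9 for Esrrb, 310.3 and 287.5 for Nanog, and 56.03 and 45.56 for Dppa5a. Pou5f1 was higher in Tet2-KO, at 85.85 and 105.8. The 8 fibroblast markers summed to at most 15.9 RPM, and the 6 primitive endoderm markers to at most 21.7. Their part in the differences between genotypes was not tested. In these bulk libraries fewer cells that make a transcript and less transcript per cell cannot be told apart.

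Together the 200 pseudogenes took 438730 reads, which was 0.1202% of the 364953023 reads on genes. They held 72.65% of the 603855 reads on the 8485 autosomal candidates. The reads were unevenly spread. Gm15459, a copy of Hspa8, alone held 12.54% of them and the 10 most read pseudogenes held 40.97%, whereas the median pseudogene had 956.5 reads over the 18 libraries. The 200 lay on all 19 autosomes, with 32 of them on chromosome 4, and had a median span of 754.5 bp.

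A parent was taken to be the protein-coding gene whose transcript gave the best blastn alignment, with at least 80% identity over at least 50% of the pseudogene. This found a parent for 185 of the 200. In all 24 pseudogenes whose symbol names a parent with the ending -ps, the alignment gave the same gene. The median identity to the parent was 97.08%, with quartiles at 92.3% and 99.19%, and 6 copies were identical to it over the aligned length. The 185 copies came from 126 parents, 33 of which had 2 or more copies in the list. Ribosomal protein genes were the parents of 45, genes for chromatin and nuclear proteins such as Hmgb1 and Npm1 of 16, genes for RNA-binding and splicing proteins of 14, chaperone genes of 9, and translation factor genes of 6. No glycolytic parent was found. Other parents accounted for 90.

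These copies were read at a lower density than their parents in most cases. Per kb of annotated span, introns included, a copy had a median of 0.2714 times the reads of its parent, and 50 of 185 copies had more than the parent. These include 2 copies, Gm15710 and Atp6v0c-ps2, whose parents Rpl13 and Atp6v0c were listed at 0 in all libraries. Why these parents were at 0 was not tested, so the 0 does not show that they are silent. Without these 2 copies 48 of 183 had more than the parent, with a median of 0.2656. The most extreme of the 10 most read were Gm10557, a copy of the cadherin gene Cdh11, and Gm49644, whose parent Gm10053 had 86 reads in all. Gm45315, a fragment of the DNA-binding protein gene Hmgb1 with 27402 reads, had 166.2 times the reads per kb of its parent. Hmgb1 had more reads in all, 68211, spread over the long annotated span chr5:149046702-149184489.

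The counting left a mark on which copies could enter the list. Of 1031 processed pseudogenes that lie wholly inside another gene on the same strand, 1028 had no read at all, against 55.0% with reads among 6719 that overlap no gene and 70.5% among 1689 that overlap genes of the opposite strand alone. Accordingly 142 of the 200 overlapped no other gene, 54 overlapped opposite-strand genes alone and 4 overlapped a gene of the same strand. Reads that aligned to more than 1 place made up 5.24% to 5.99% of each library and were not assigned to genes. For 54 of the 200, another member of the list was at least 95% identical, and 52 were at least 99% identical to their parent, so that how reads were split between such copies is uncertain.

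The sum over both genotypes also decided who entered. Ranked by WT libraries alone, 175 of the 200 would have been chosen, and by Tet2-KO libraries alone 180, with 155 chosen by both. A copy read mainly in 1 genotype could thus enter through that genotype, and the counts of strongly different copies describe this list and are not support for a difference in processed pseudogenes at large.

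The summed level of the 200 was higher in Tet2-KO at each labelling time on both scales used. The first scale divides by the reads on ERCC RNAs and the second by all reads on genes. Per ERCC read, WT libraries had 0.0468 ± 0.00446 reads on the 200 pseudogenes at 10 min, 0.146 ± 0.0079 at 20 min and 0.246 ± 0.0103 at 40 min (mean ± SD, n = 3 each). Tet2-KO libraries had 0.132 ± 0.00765, 0.290 ± 0.0134 and 0.594 ± 0.0437. The ratio of Tet2-KO to WT was 2.81 at 10 min, 1.99 at 20 min and 2.41 at 40 min, and no Tet2-KO library overlapped the WT libraries of its labelling time. All genes tested shifted the same way on this scale, with median log2 fold changes of 0.96, 0.45 and 0.67 at the successive labelling times.

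As a percent of gene reads, the 200 took in WT 0.100% ± 0.000907, 0.0992% ± 0.00121 and 0.0996% ± 0.00157. In Tet2-KO they took 0.138% ± 0.00194, 0.141% ± 0.00225 and 0.149% ± 0.0027. The ratio was 1.38, 1.42 and 1.5 at the 3 labelling times. Much of this came from a single gene. Gm15459 made up 0.442% to 0.878% of the reads on the 200 in WT and 19.8% to 22.9% in Tet2-KO. Without it the mean ratio over labelling times fell from 1.43 to 1.13 as a share of gene reads and from 2.38 to 1.88 per ERCC read.

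**Figure D1:**
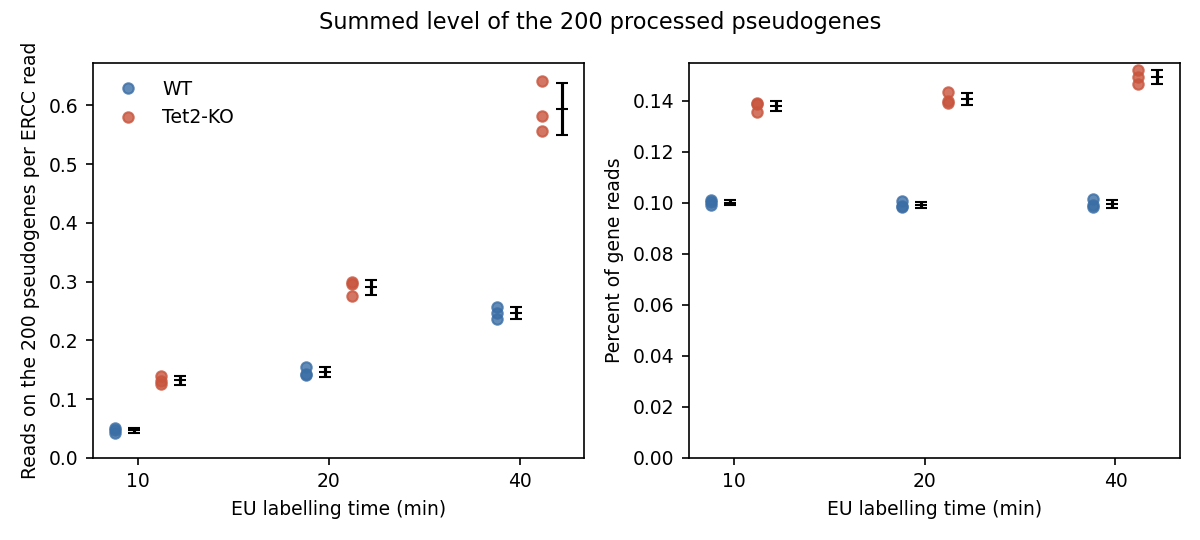
Reads on the 200 processed pseudogenes per ERCC read (left axis panel) and as a percent of all reads on genes (right panel) against EU labelling time in minutes; points are libraries, 3 for each genotype and time, and the black marks show mean and SD. On the right the 9 WT libraries lie between 0.0984% and 0.101% and the 9 Tet2-KO libraries between 0.136% and 0.152%.

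Single pseudogenes were tested in edgeR (quasi-likelihood) across the 19910 genes that passed a filter on low counts, which all 200 did; p-values were adjusted by Benjamini and Hochberg's method over all of these genes, with a threshold of 0.05. Per ERCC read and averaged over labelling times, 170 of the 200 were higher in Tet2-KO and 9 lower. Over all genes tested, 80.5% were higher and 4.15% lower, and the median log2 fold change was 0.78 among the 200 and 0.70 among all genes. At 10 min 164 were higher and 6 lower, against 79.0% and 2.1% of all genes. At 20 min 104 were higher and 10 lower, against 53.7% and 4.86%. At 40 min 131 were higher and 7 lower, against 68.2% and 2.84%. On this scale the share of the 200 that rose was thus close to that of all genes. At every labelling time all Tet2-KO libraries lay above all WT libraries in 96 of the 200 and under them in 6, against 51.6% and 1.56% of all genes. These counts depend on the ERCC scale. With TMM normalization, which sets the median of all genes from 0.70 to 0.00, 64 were higher and 37 lower. The shares of all genes above belong to the ERCC fit, so they are not a base rate for the TMM counts.

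As a share of gene reads, 59 of the 200 were higher in Tet2-KO and 41 lower, where 24.6% of all genes were higher and 32.0% lower. The median log2 fold change was 0.06 among the 200 and -0.04 among all genes. Past 4-fold, 17 of the 200 were higher and 5 lower, where 1.37% of all genes tested were higher and 1.23% lower past 4-fold. In 39 of the 200 every Tet2-KO library lay above every WT library of its labelling time, and in 14 every one lay below, against 11.8% and 13.9% of all genes. All 22 copies past 4-fold were among those whose genotypes did not overlap. Of the 17 that were higher, all 17 would have been chosen by Tet2-KO libraries alone and 2 by WT libraries alone, and of the 5 that were lower, all 5 by WT libraries alone and 1 by Tet2-KO libraries alone.

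**Figure D2:**
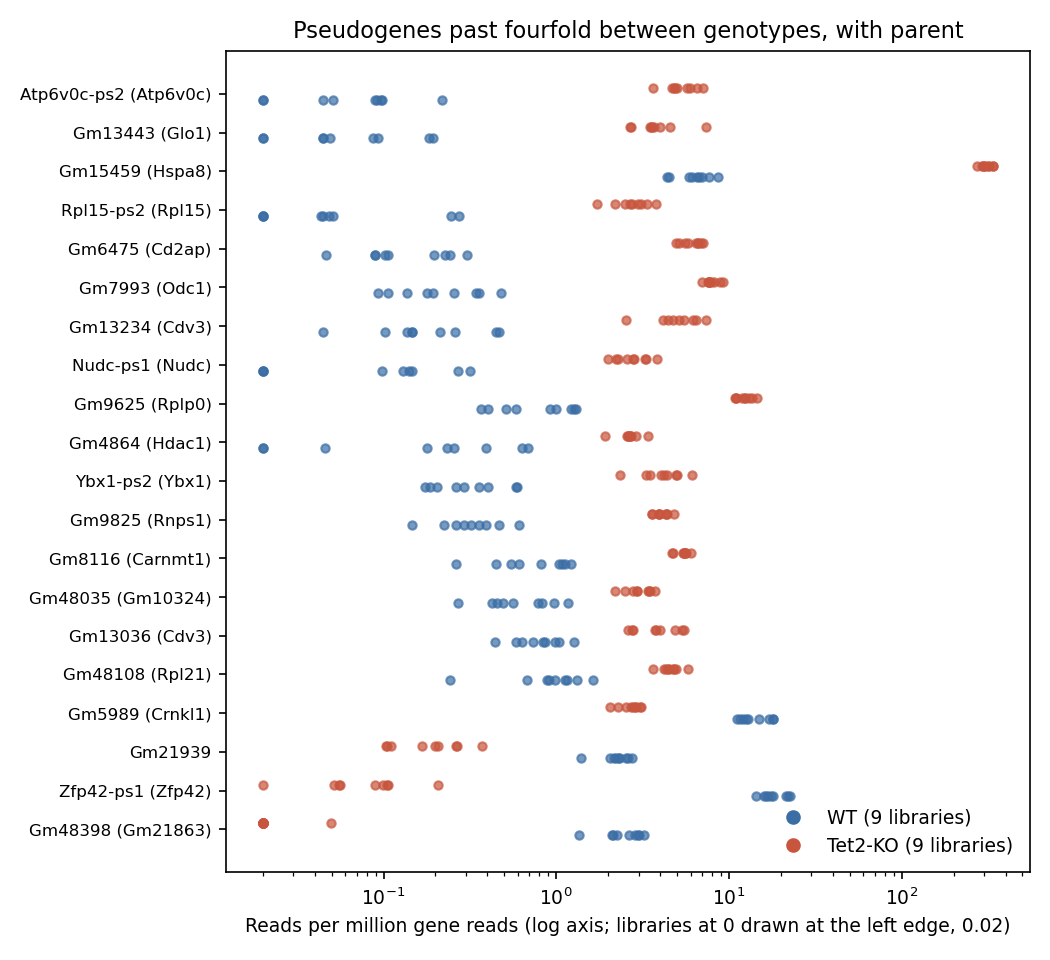
Reads per 1000000 gene reads (RPM, log axis) of 20 of the 22 processed pseudogenes past 4-fold between genotypes, each with its parent in brackets; each point is 1 library, 9 for WT and 9 for Tet2-KO, and libraries at 0 are drawn at 0.02. In none of the 20 do the genotypes overlap.

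Gm15459 was the pseudogene with the most reads and one of the largest differences. It is a copy of Hspa8, the gene of the constitutive heat shock cognate chaperone, with 99.7% identity over its whole length and 5 mismatches, and lies at chr5:5781615-5783555 on the minus strand (mm10), opposite to the gene Gm26825. Its counts were 150, 146 and 96 in WT at 10 min, 115, 116 and 97 at 20 min, and 176, 143 and 178 at 40 min. In Tet2-KO they were 6529, 5469 and 5658, then 6014, 5306 and 5827, then 6103, 6859 and 6028. Every Tet2-KO library thus held at least 5306 reads and every WT library at most 178. In RPM, WT libraries ranged from 4.38 to 8.65 with a median of 6.56, and Tet2-KO libraries from 274.7 to 339.2 with a median of 303.5. The log2 fold change was 5.61 ± 0.0432 (SE; edgeR quasi-likelihood, adjusted p = 7.123e-41) as a share of gene reads and 6.34 ± 0.0693 per ERCC read.

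Its parent moved the other way. Hspa8 was at 686.7 to 849.4 RPM in WT and at 415.6 to 505.3 in Tet2-KO, with a log2 fold change of -0.67 ± 0.0138 (edgeR quasi-likelihood, adjusted p = 6.29e-29). Gm15459 and Hspa8 together were at 692.9 to 857 RPM in WT, with a median of 713.7. In Tet2-KO the sum was at 705.9 to 841.5, with a median of 787.1. These ranges pool the 3 labelling times, and those of the sum overlapped where those of each gene did not. A second Hspa8 copy in the list, Gm8355, which is 98.7% identical to Gm15459, was at 3.28 to 8.66 RPM in WT and 3.47 to 5.02 in Tet2-KO, with an adjusted p of 0.844 by the same edgeR test. How reads were divided between Gm15459 and Hspa8 was not tested. The first 120 bases of the Gm15459 copy, at chr5:5783436-5783555 on the minus strand (mm10), are shown with the matching start of the Hspa8 coding sequence, to let the closeness of copy and parent be seen; the capital marks the 1 base that differs from the parent.
Gm15459: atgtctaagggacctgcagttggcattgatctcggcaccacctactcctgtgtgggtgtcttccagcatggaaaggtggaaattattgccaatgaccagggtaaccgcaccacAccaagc
Hspa8: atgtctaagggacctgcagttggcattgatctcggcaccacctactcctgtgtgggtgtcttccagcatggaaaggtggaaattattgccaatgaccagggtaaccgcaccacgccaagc

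The other 16 pseudogenes that were higher past 4-fold had far fewer reads. Atp6v0c-ps2, a copy of the gene for a membrane subunit of the vacuolar proton pump with 99.8% identity, ranged from 0 to 0.217 RPM in WT and from 3.64 to 7.09 in Tet2-KO, a log2 fold change of 6.36 ± 0.230. Its parent Atp6v0c was listed at 0 in all 18 libraries. Why it was at 0 was not tested, so the 0 does not show that the parent is silent. Gm13443, a copy of the glyoxalase gene Glo1, ranged from 0 to 0.194 in WT and from 2.68 to 7.33 in Tet2-KO, a log2 fold change of 5.69 ± 0.306, whereas Glo1 differed by 0.48 ± 0.0375 in the same direction. Gm6475, a copy of the adaptor gene Cd2ap, ranged from 0.0466 to 0.303 and from 4.95 to 7.08, a log2 fold change of 5.37 ± 0.179. Nearly all reads on these 3 copies came from Tet2-KO libraries: 936 against 15 for Atp6v0c-ps2, 683 against 15 for Gm13443 and 1062 against 30 for Gm6475. With so few WT reads the fitted fold changes rest in part on the prior count of the fit.

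Rpl15-ps2, a copy of a large-subunit ribosomal protein gene on chromosome 9 opposite to Tcf12, had 15 reads in the 9 WT libraries and 484 in the 9 Tet2-KO libraries. Its log2 fold change was 5.37 ± 0.329, and that of Rpl15 was -0.07 ± 0.0349 (edgeR quasi-likelihood, adjusted p = 0.0719). Gm7993, a copy of the ornithine decarboxylase gene Odc1, ranged from 0.0932 to 0.477 RPM in WT and from 7.03 to 9.26 in Tet2-KO, a log2 fold change of 5.10 ± 0.158. Gm9625, a copy of the ribosomal stalk protein gene Rplp0 with 97.4% identity, ranged from 0.365 to 1.30 and from 10.8 to 14.5, a log2 fold change of 3.95 ± 0.118. Further higher copies were Gm13234 (parent Cdv3) at 4.496, Nudc-ps1 at 4.45, Gm4864 (Hdac1) at 3.74, Ybx1-ps2 at 3.64, Gm9825 (Rnps1) at 3.58, Gm8116 (Carnmt1) at 2.82, Gm48035 (Gm10324) at 2.25 and Gm48108 (Rpl21) and Gm13036 (Cdv3) at 2.23 each. The start of Rpl15-ps2, at chr9:72060937-72061056 on the plus strand (mm10), is shown as an example of a copy read almost only in Tet2-KO, with the 3 bases that differ from the Rpl15 coding sequence in capitals.
Rpl15-ps2: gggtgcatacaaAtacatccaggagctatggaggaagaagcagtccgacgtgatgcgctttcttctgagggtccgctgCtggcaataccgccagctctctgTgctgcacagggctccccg
Rpl15: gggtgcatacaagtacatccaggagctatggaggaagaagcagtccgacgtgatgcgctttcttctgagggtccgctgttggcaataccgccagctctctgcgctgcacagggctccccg

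The parents of the higher copies were not higher as a group. Of the 17, 16 had a parent that was tested, and 4 of these parents were higher, 8 lower and 4 not past the threshold, with log2 fold changes between -0.67 and 0.48. Over all genes tested, 24.6% were higher and 32.0% lower. The identity of the 17 copies to their parents ranged from 84.7% to 99.83%, and 5 were at least 99% identical, so that the large differences were seen both in copies nearly identical to the parent and in diverged ones. On the ERCC scale the 5 highest log2 fold changes were those of Atp6v0c-ps2 at 7.08, Gm13443 at 6.41, Gm15459 at 6.34, Rpl15-ps2 at 6.11 and Gm6475 at 6.09.

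Among the 5 lower copies, Zfp42-ps1 had the most reads. Zfp42, also known as Rex1, encodes a zinc finger protein that marks naive stem cells, and Zfp42-ps1 is a partial copy of it with 98.1% identity at chr15:93679160-93679649 on the minus strand (mm10). Its counts were 366, 357 and 313 in WT at 10 min, 352, 320 and 376 at 20 min, and 504, 461 and 440 at 40 min. In Tet2-KO they were 2, 1 and 2, then 2, 4 and 1, then 0, 2 and 1. The 9 Tet2-KO libraries thus held 15 reads in all and the 9 WT libraries 3489. The log2 fold change was -7.69 ± 0.143 as a share of gene reads (edgeR quasi-likelihood, adjusted p = 2.666e-30). Zfp42 itself was lower too, at 519.8 to 567.7 RPM in WT and 102.7 to 122.2 in Tet2-KO, a log2 fold change of -2.25 ± 0.0171. The stretch of Zfp42-ps1 at chr15:93679286-93679405 on the minus strand, which holds 3 differences from bases 622 to 741 of the Zfp42 coding sequence, is shown because copy and parent fell together; capitals mark the bases that differ.
Zfp42-ps1: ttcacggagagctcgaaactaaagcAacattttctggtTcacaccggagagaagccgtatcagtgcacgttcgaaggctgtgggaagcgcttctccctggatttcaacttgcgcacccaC
Zfp42: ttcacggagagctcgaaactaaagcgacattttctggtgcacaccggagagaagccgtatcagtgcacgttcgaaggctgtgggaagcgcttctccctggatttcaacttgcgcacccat

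Gm48398, a 217 bp copy at 91.6% identity to the gene Gm21863 on the same chromosome 12, was the other copy whose parent fell past 4-fold. It had 29 to 74 reads in each WT library and 1 read in the 9 Tet2-KO libraries together. The ratio of WT to Tet2-KO, per gene read, was 434.4, with a 95% exact interval from 77.6 to 17190 that covers counting error only. Gm21863 was at 3.19 to 5.40 RPM in WT and at most 0.103 in Tet2-KO, a log2 fold change of -7.11 ± 0.303. A second copy of Gm21863 in the list, Gm40848, is 90.7% identical to Gm48398 and lies at chr12:18387755-18388078, and it was higher in Tet2-KO, at 0.821 to 1.93 RPM in WT and 2.44 to 4.44 in Tet2-KO. Related copies on 1 chromosome thus differed in opposite directions. Reads in libraries without molecular identifiers are not independent molecules.

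Of the other lower copies, Gm5989, a copy of the spliceosome component gene Crnkl1, ranged from 11.2 to 18.03 RPM in WT and from 2.06 to 3.10 in Tet2-KO, a log2 fold change of -2.39 ± 0.0796, whereas Crnkl1 was at -0.10 ± 0.0321. Gm21939, for which no parent was found and which stood just inside the threshold of the list, ranged from 1.39 to 2.74 and from 0.104 to 0.371, a log2 fold change of -3.46 ± 0.240. These copies, unlike most of the 200, were also lower per ERCC read, with log2 fold changes of -7.00 for Zfp42-ps1, -2.74 for Gm21939 and -1.66 for Gm5989.

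Over all 180 pseudogenes with a tested parent, the genotype difference of the copy had little relation to that of the parent. Spearman's rho between the 2 log2 fold changes as shares of gene reads was 0.0849, as a description, since copy and parent share the same 18 libraries and some parents are shared by several copies. The 22 copies past 4-fold lay on 12 chromosomes. Of the 20 that had a tested parent, 17 parents differed by less than 0.5 on the log2 scale, and their median was -0.07. Among the 121 distinct parents tested, 49 were higher, 40 lower and 2 past 4-fold, namely Zfp42 and Gm21863. Over all genes tested, 24.6% were higher and 32.0% lower, and past 4-fold 1.37% were higher and 1.23% lower.

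**Figure D3:**
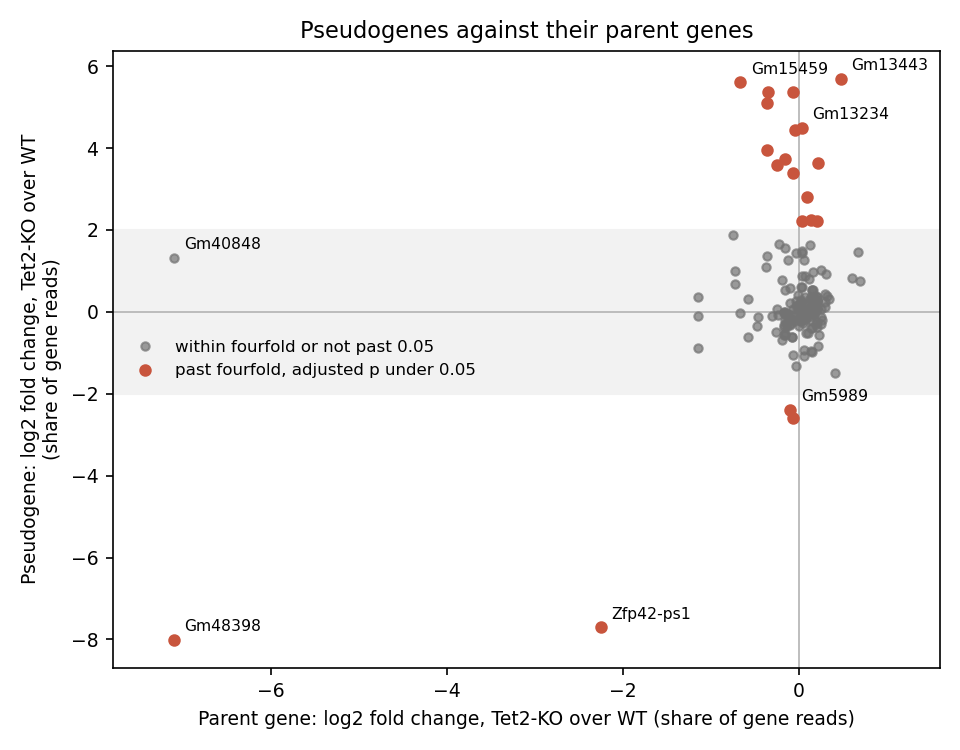
Log2 fold change of Tet2-KO over WT as a share of gene reads, for each of 180 processed pseudogenes (vertical axis) against its parent gene (horizontal axis); red points are the 20 past 4-fold with a tested parent and the grey band marks 4-fold. Most red points stand above or under a parent near 0, and Zfp42-ps1 and Gm48398 lie at the lower left with parents at -2.25 and -7.11.

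The 10 most read pseudogenes, chosen by count, are described here for their differences between genotypes. Besides Gm15459, 4 were higher as a share of gene reads. Gm13223 (Cdv3) was at 8.39 to 12.6 RPM in WT and 23.4 to 38.7 in Tet2-KO, and Gm8258, a copy of the taxilin gene Txlng, was at 8.25 to 10.9 and 23.1 to 33.6, so that the genotypes did not overlap in either, with log2 fold changes of 1.49 ± 0.0584 and 1.63 ± 0.0559. Gm13241 (Cdv3) differed by 0.61 ± 0.0552 and Gm45315 (Hmgb1) by 0.25 ± 0.0366. Gm49644 was lower by this scale, at -0.18 ± 0.0464. The other 4 did not pass the threshold: Gm10557 was at 0.02 ± 0.0395, AC098880.2 at 0.07 ± 0.0416, Gm20760 at -0.04 ± 0.0464 and Gm6477 (Npm1) at 0.07 ± 0.0485. Per ERCC read all 10 were higher, with log2 fold changes from 0.55 for Gm49644 to 6.34 for Gm15459, although Gm49644 and Gm20760 changed sign with TMM normalization.

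Grouped by what the parents do, the families with 6 or more copies had median log2 fold changes between -0.11 and 0.16 as a share of gene reads, beside -0.04 over all genes. On this scale 24.6% of all genes tested were higher and 32.0% lower. Among the 45 copies of ribosomal protein genes, 11 were higher and 7 lower, with a median of 0.01. Their range ran from -0.89 for Gm9493 (Rps7) to 5.37 for Rpl15-ps2. Both copies of Rplp0 were higher, Gm8730 by 1.37 ± 0.0679 and Gm9625 by 3.95, whereas Rplp0 was lower at -0.36 ± 0.0192. Gm8730 is the most read ribosomal protein copy and ranged from 6.07 to 8.45 RPM in WT and from 17.6 to 21.8 in Tet2-KO. Copies of Rpl23a, by contrast, included 2 that were lower, Gm10335 at -0.57 and Rpl23a-ps3 at -0.31, and 2 that did not pass, Gm8290 at -0.02 and Gm20900 at 0.01. The ribosomal protein genes themselves, counted once each, were higher in 11 and lower in 9 of 26.

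The smaller families differed in how many copies passed the threshold, beside 24.6% of all genes higher and 32.0% lower as a share of gene reads. Of 9 chaperone copies, Gm15459 was higher and Gm5844, a copy of Hsp90aa1, was lower at -0.29 ± 0.0966. Of 16 copies of chromatin and nuclear protein genes, 3 were higher and 2 lower, all between -0.37 and 1.03. The 6 Hmgb1 copies included 2 that were higher, Gm45315 and Gm8319, and the 4 Npm1 copies 1 that was lower, Gm13423 at -0.37. Of 14 copies of RNA-binding protein genes, 3 were higher and 5 lower, and here the 2 copies of the cold-shock domain gene Ybx1 went opposite ways, Ybx1-ps2 at 3.64 and CT009755.1 at -0.83, beside a parent at 0.22. Gm8991, the most read copy of Hnrnpa3, was at 0.08 ± 0.0884. Of the 6 translation factor copies, Eif4a-ps4 was higher at 0.28, and the most read, Gm6863 (Naca), was at -0.09 ± 0.0822. The single cytoskeletal copy Gm12715 (Actg1) did not pass. Nor did the 2 copies of nuclear genes for mitochondrial proteins, of which Gm5436 (Atp5o) had more reads. Copies of the mitochondrially encoded genes mt-Nd5 and mt-Nd6 were counted under other parents. Of the 2 proteasome and ubiquitin copies Gm3375 (Psmb5) was higher at 1.08 ± 0.169.

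Copies that differed were found at each level of identity to the parent. As a share of gene reads, 24.6% of all genes tested were higher and 32.0% lower. Of the 52 copies with at least 99% identity, 13 were higher and 11 lower as a share of gene reads, with a median of 0.03. Of the 67 with 95% to under 99%, 19 were higher and 5 lower, with a median of 0.07, and of the 66 under 95%, 24 were higher and 19 lower, with a median of 0.19. Among the 15 without a parent 3 were higher and 6 lower. Copies opposite to another gene, 54 in all, had 17 higher and 14 lower, and the 142 that overlapped no gene had 42 higher and 27 lower, with medians of 0.04 and 0.07.

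A stretch of chromosome 4, chr4:145455633-147822202 (mm10), held 16 of the 32 chromosome 4 pseudogenes; it was singled out after the values had been seen. Of these 16, 9 were higher in Tet2-KO as a share of gene reads, 2 lower and 5 not past the threshold. Among all genes tested, 24.6% were higher and 32.0% lower. The stretch held all 7 copies of Cdv3 and all 4 copies of Smarca5, the ATPase of ISWI chromatin remodelling complexes, that were in the list. The Cdv3 copies differed widely among themselves. Gm13234 stood at 4.496 ± 0.225, Gm13036 at 2.23 ± 0.143, Gm13223 at 1.49 ± 0.0584, Gm13148 at 1.44 ± 0.116, Gm13238 at 0.88 ± 0.180, Gm13241 at 0.61 ± 0.0552 and Gm20760 at -0.04 ± 0.0464, while Cdv3 on chromosome 9 was at 0.03 ± 0.0168.

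These Cdv3 copies were close to each other in sequence. Gm13241 and Gm13238 were 98.2% identical, Gm13234 and Gm13148 98.0%, and Gm13036 and Gm13223 96.5%. Close copies still differed in size of effect: Gm13234 ranged from 0.0449 to 0.466 RPM in WT and from 2.52 to 7.36 in Tet2-KO, whereas Gm13148 ranged from 1.54 to 3.51 and from 3.94 to 7.86. The copy with the most reads, Gm20760, ranged from 23.0 to 33.7 in WT and from 20.8 to 31.2 in Tet2-KO, so that the genotypes overlapped in most of their range. The same 120 bases of 2 copies are shown, Gm13234 at chr4:145632951-145633070 and Gm20760 at chr4:146933225-146933344, both on the plus strand (mm10). Gm13234 was read mostly in Tet2-KO, with few reads in WT, whereas the ranges of Gm20760 overlapped between genotypes. Capitals mark the 6 and 7 bases that differ from bases 547 to 666 of the Cdv3 coding sequence.
Gm13234: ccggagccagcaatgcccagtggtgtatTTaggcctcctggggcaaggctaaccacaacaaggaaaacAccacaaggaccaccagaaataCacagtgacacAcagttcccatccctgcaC
Gm20760: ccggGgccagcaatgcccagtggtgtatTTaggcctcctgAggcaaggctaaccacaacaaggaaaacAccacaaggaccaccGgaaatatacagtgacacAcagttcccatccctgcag
Cdv3: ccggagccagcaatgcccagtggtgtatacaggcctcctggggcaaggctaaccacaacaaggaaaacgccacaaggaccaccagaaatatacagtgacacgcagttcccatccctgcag

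Of the 4 Smarca5 copies, 1 was higher and 2 lower. Gm13034 was at 0.54 ± 0.0750, Gm13231 at -0.22 ± 0.0850 and Gm13140 at -0.99 ± 0.0690, the last ranging from 15.2 to 20.4 RPM in WT and from 6.05 to 9.89 in Tet2-KO. Smarca5 was at 0.14 ± 0.0156. Several copies of the stretch, among them Gm13241, Gm20760 and Gm13140, lie opposite to the long non-coding gene Gm26573, and they did not move alike, at 0.61, -0.04 and -0.99.

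**Figure D4:**
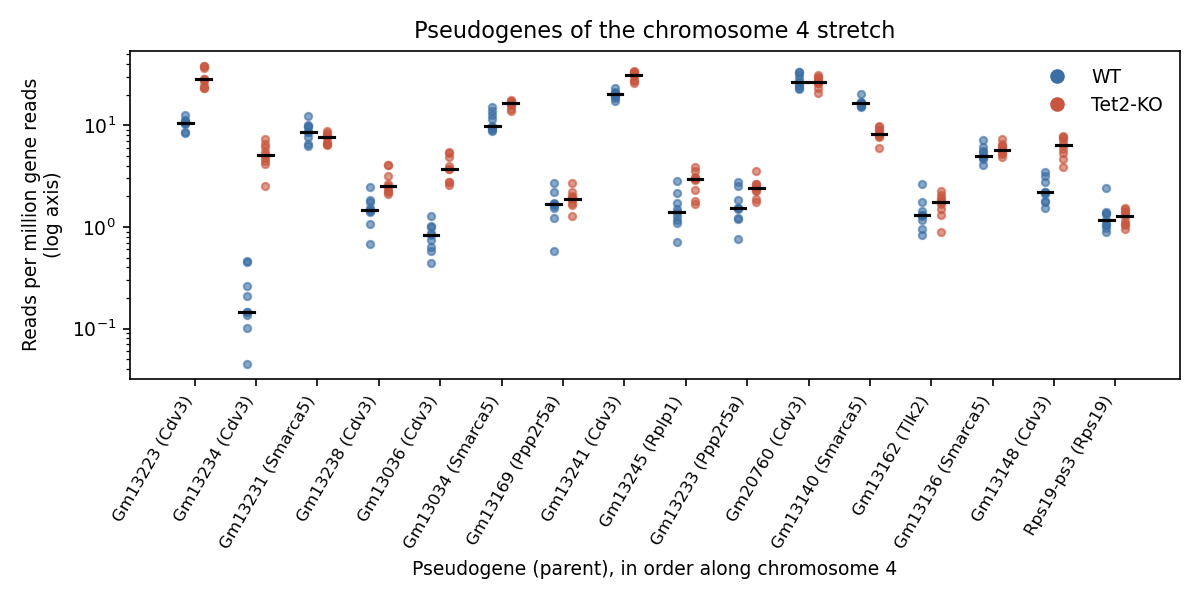
Reads per 1000000 gene reads (RPM, log axis) of the 16 pseudogenes of the chromosome 4 stretch, in their order along the chromosome with the parent in brackets; points are libraries, 9 for each genotype, and black bars are medians. Gm13234 lies at 0.0449 to 0.466 in WT and 2.52 to 7.36 in Tet2-KO, next to Gm13231, whose genotypes overlap.

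The second question was how the copies changed with labelling time, which runs from the newest RNA at 10 min to RNA made over 40 min. Per ERCC read all 200 rose from 10 to 40 min in WT and 194 in Tet2-KO, where 96.7% and 94.7% of all genes rose, and none of the 200 fell, where 0.01% and 0.00502% of all genes fell. As a share of gene reads, which sets a copy against all other labelled RNA, 36 rose and 35 fell in WT in the edgeR test, against 16.1% and 29.5% of all genes. In Tet2-KO 34 rose and 27 fell, against 16.5% and 20.0%. The median log2 change of the 200 in WT was 0.04, beside -0.14 among all genes.

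The falls named here passed the threshold in both genotypes. Gm10335, a copy of the ribosomal protein gene Rpl23a with 99.8% identity, was at 15.0, 15.2 and 15.7 RPM at 10 min in WT, at 8.30, 6.92 and 9.73 at 20 min, and at 5.46, 5.04 and 4.37 at 40 min. In Tet2-KO it was at 9.16, 7.94 and 8.29, then 7.78, 3.57 and 7.56, then 4.12, 3.66 and 3.18. The 10 and 40 min libraries did not overlap in either genotype. The log2 change was -1.62 ± 0.173 in WT and -1.21 ± 0.193 in Tet2-KO, and that of Rpl23a -0.17 ± 0.0376 and -0.06 ± 0.0384. Gm11408, a copy of the mitochondrial gene mt-Nd6, fell by 1.59 on the log2 scale in WT and by 0.90 in Tet2-KO, and Gm8899, a copy of Ccdc174, fell by 1.39 and by 0.91. Gm7890 (Hmgb1) fell by 0.88 in WT and by 1.74 in Tet2-KO, and Gm11878 (Rps24) fell by 1.05 and by 1.62. Gm10335, Gm8899 and Gm7890 lie opposite to Adgrg6, E130307A14Rik and Malsu1.

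The largest rise in WT was that of Gm4864, at 2.81 ± 0.641 on the log2 scale from 10 to 40 min, beside -0.04 ± 0.316 in Tet2-KO; its WT counts at 10 min were 0, 4 and 1. The other rises were smaller. AC098880.2, whose best parent Gm13212 is only 80.2% identical, was at 21.2 ± 1.89 RPM at 10 min in WT, 39.0 ± 1.54 at 20 min and 55.7 ± 2.01 at 40 min (SD, n = 3 each). In Tet2-KO it was at 27.7 ± 3.03, 38.1 ± 1.93 and 51.0 ± 2.24. Gm9027, a copy of the Sin3 complex gene Sinhcaf, rose by 1.74 ± 0.330 on the log2 scale in WT and by 0.96 ± 0.297 in Tet2-KO, and Gm13410, a copy of the RNA helicase gene Ddx6, rose by 1.44 ± 0.272 and 1.02 ± 0.226. In Tet2-KO, Gm8276, a copy of the poly(A)-binding protein gene Pabpc1, rose by 1.32 ± 0.336, Gm48196 by 1.24 ± 0.322 and Gm48401 by 1.22 ± 0.324, while in WT these 3 were at 0.15, 0.34 and 0.35 and did not pass.

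Across the 200, 16 copies rose in both genotypes and 19 fell in both, where 10.9% and 15.2% of all genes did. A further 2 passed in opposite directions, 34 in WT alone, 24 in Tet2-KO alone and 105 in neither, against 0.748%, 18.7%, 9.67% and 44.8% of all genes. Spearman's rho between the WT and Tet2-KO changes was 0.567 over the 200. The 2 genotypes share no library, but each copy keeps its length and depth in both, so that the value is a description. Between copy and parent, rho was 0.272 in WT and 0.378 in Tet2-KO over 180 pairs. Copies of ribosomal protein genes rose in 6 and fell in 10 of 45 in WT, where 16.1% of all genes rose and 29.5% fell. In Tet2-KO none of them rose and 5 fell, where 16.5% of all genes rose and 20.0% fell. The 26 tested parents of this family rose in 6 and fell in 14 in WT, and rose in 5 and fell in 11 in Tet2-KO.

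**Figure D5:**
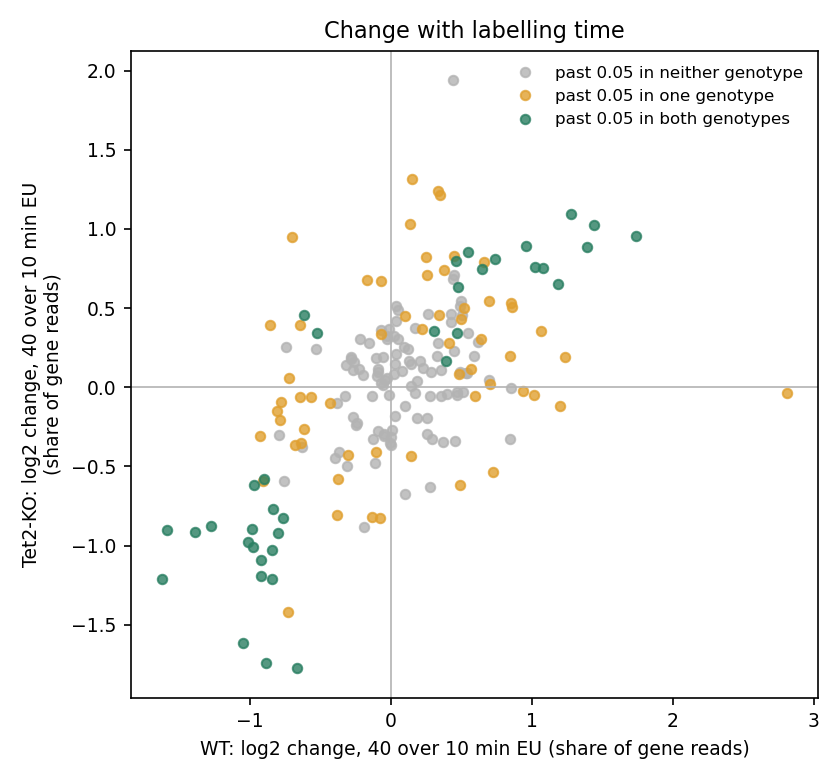
Log2 change from 10 to 40 min of EU labelling as a share of gene reads in Tet2-KO (vertical axis) against WT (horizontal axis), for each of the 200 processed pseudogenes; colours show whether the change passed an adjusted p of 0.05 in neither, one or both genotypes. The point at 2.81 on the WT axis is Gm4864, which was at -0.04 in Tet2-KO.

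A test of the difference between genotypes in the change from 10 to 40 min found 7 of the 200 with a more positive change in Tet2-KO and 6 with a more negative one, against 5.89% and 3.36% of all genes. Gm4864, a copy of the histone deacetylase gene Hdac1, had the largest, at -2.85 ± 0.724 (edgeR quasi-likelihood, adjusted p = 0.00953). It had 0, 4 and 1 reads in the WT libraries at 10 min, 5, 0 and 5 at 20 min and 9, 14 and 13 at 40 min, and 65, 47 and 51, then 36, 50 and 66, then 51, 55 and 46 in Tet2-KO. The WT counts are so low that 1 read more or less at 10 min alters the fold. Gm13036 went the other way, from 0.962 ± 0.0855 RPM at 10 min to 0.587 ± 0.148 at 40 min in WT and from 2.72 ± 0.0937 to 5.25 ± 0.320 in Tet2-KO, a difference of 1.64 ± 0.364 (edgeR quasi-likelihood, adjusted p = 0.00283). Gm13148 and Gm13223, 2 further Cdv3 copies of the chromosome 4 stretch, differed by 1.07 ± 0.278 and 0.74 ± 0.144 in the same direction.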

How the data were processed

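Nascent RNA was sequenced in 18 libraries of WT and Tet2-KO mES cells, 3 for each genotype and EU labelling time. According to the submitters' processing notes and the study's methods, the authors trimmed reads with Trimmomatic 0.39, aligned them to mm10 with HISAT2 2.2.1 and counted them per gene with HTSeq 0.12.4. The files hold the deposited raw counts, 1 table per library, with 92 ERCC RNAs and HTSeq's summary rows. The summary rows were left out of library sizes and tests; reads on no feature made up 13.2% to 16.9% of a library and ambiguous reads 2.32% to 2.50%. The strand setting is not given in the sources used here, and the opposite-strand comparison in the results comes from the counts alone.

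Gene IDs were matched to GENCODE M21 (GRCm38, 54409 of 54446), which gave symbols, biotypes, positions and transcript sequences; the study counted on release M19. Counts were fitted in edgeR 4.0.16 (R 4.3.3) with the quasi-likelihood test over 19910 genes kept by filterByExpr (minimum count 10), in 6 groups sharing 1 estimate of the spread, with library sizes set to ERCC reads or to gene reads, and Benjamini-Hochberg adjustment over all genes. Standard errors were derived from each gene's log2 fold change and its F statistic. DESeq2 1.42.0, TMM normalization, other count filters, fits of the compared groups alone, a replicate block and leaving out each library were alternatives. The genotype comparison was also run on simulated counts over 19910 genes. There edgeR recovered 100 of 100 genes changed by a log2 fold of 1 and 100 of 100 changed by 2, with 15 false calls. The changed genes were drawn only from genes above a minimum expected count in the smallest library, with counts from the kind of model fitted. Recovery of copies with a few reads in a genotype was thus not checked. Parents were aligned with blastn 2.17.0 (E-value at most 1e-10).

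The named genes were the 10 with the highest count, the genes next to the threshold, the 5 highest and 5 lowest fold changes without overlap between genotypes on each scale, members at or under 3 counts throughout a genotype, the 3 strongest changes with labelling time in each direction and genotype, up to 3 in each direction for its difference between genotypes, the parents of these, and the most read copy of each family. Remaining copies past 4-fold, the chromosome 4 stretch and single copies cited as examples of a family were named after their values had been seen. The pseudogenes and lists were chosen with earlier results of these data known. The values of 3 of the named pseudogenes are not reported here.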

Additional observations from a re-analysis of the deposited data

Results flagged for a closer look

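For 11 of the named pseudogenes the change from 10 to 40 min as a share of gene reads differed between genotypes in edgeR's interaction test with Benjamini-Hochberg adjustment over all genes. The difference, Tet2-KO minus WT on the log2 scale, was positive for Gm13036 at 1.64, Gm13148 at 1.07, Gm12960 at 1.04, Gm13223 at 0.74, Gm49644 at 0.35 and Gm10557 at 0.31. It was negative for Gm4864 at -2.85, Gm9625 at -1.32, Gm40848 at -1.26, Gm5989 at -0.65 and AC098880.2 at -0.50. Of the positive ones, Gm13036, Gm13148 and Gm13223 are Cdv3 copies of the chromosome 4 stretch. Among the negative ones, the genotype difference of Gm4864, Gm9625 and Gm40848 was widest at 10 min, where WT libraries had the lowest share of gene reads: Gm4864 had at most 4 reads in a WT library at that time. Gm12960, a copy of Hnrnpa3 opposite to Spata6, fell by 0.65 ± 0.226 in WT and was at 0.39 ± 0.244 in Tet2-KO.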

How the results depend on the processing

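Scaling on gene reads in place of ERCC reads left fewer pseudogenes higher and more lower. The shares of all genes given in the results belong to the main fits. None is given for the counts under the alternatives below. With TMM normalization 64 pseudogenes were higher and 37 lower averaged over labelling times, and with DESeq2's own size factors 62 and 34. Split by labelling time, TMM gave 59 higher and 28 lower (10 min), 53 and 18 (20 min), then 49 and 21 (40 min); DESeq2's own size factors gave 58 higher and 27 lower, 50 and 17, then 48 and 20. A filter of at least 10 counts in every library left fewer genes, and 5 pseudogenes were then lower on average, with 3, 6 and 3 lower for the successive labelling times; past 4-fold as a share of gene reads it left 2 higher and 1 lower, since copies read in 1 genotype alone fail it. For the difference between genotypes in the change from 10 to 40 min, TMM and DESeq2's own size factors each left 4 pseudogenes higher.

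Without the 10 most read pseudogenes the summed ratio of Tet2-KO to WT was 1.84 per ERCC read and 1.11 as a share of gene reads. Per ERCC read, TMM and DESeq2's own size factors turned the sign for Gm49644 (-0.14 with both), Gm20760 (-0.005 and -0.0098), Gm12715 (-0.0981 and -0.10), Gm5436 (-0.027 and -0.0325) and Gm6863 (-0.0492 and -0.0541), on the log2 scale. Of 1620 values of named pseudogenes under alternatives, 1583 kept direction and side of the threshold, 21 lost it, 4 gained it and 12 changed sign.

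Leaving out 1 library at a time, the summed ratio ranged from 2.343 to 2.418 per ERCC read and from 1.427 to 1.436 as a share of gene reads. Per ERCC read, between 167 and 171 pseudogenes were higher on average (lower: between 8 and 10). For 10 min libraries between 151 and 165 were higher (lower: between 5 and 7), for 20 min libraries between 89 and 111 (lower: between 8 and 11), for 40 min libraries between 115 and 134 (lower: between 5 and 7). As a share of gene reads between 57 and 63 were higher (lower: between 36 and 43), with 17 and 5 past 4-fold each time. Changes with labelling time in WT numbered between 26 and 36 upward (downward: between 27 and 36), in Tet2-KO between 23 and 38 upward (downward: between 20 and 29), and for the difference between genotypes between 4 and 8 in each direction, where 4 were higher without WT replicate 2 at 40 min or without Tet2-KO replicate 2 at 40 min. As a share of gene reads Gm10557 changed sign without WT replicate 1 at 40 min (-0.0007, range to 0.0402) and Gm5436 without WT replicate 1 at 10 min (0.0854, range from -0.1615).

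Replicate numbers of the labels did not pair the libraries: deviations of same-numbered libraries from their group means correlated at -0.111 to 0.106 over 45 pairs. With the number as a replicate block, 168 were higher and 9 lower per ERCC read averaged over labelling times, 163 and 6 (10 min), 104 and 9 (20 min), 131 and 7 (40 min), and 59 and 41 as a share of gene reads. With labelling time the block gave 36 and 34 in WT, 32 and 27 in Tet2-KO, and 7 and 6 for the difference between genotypes.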
